A study of Mus musculus with 6 samples.

Results

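The 9 genes described here encode the enzymes that make serine from a glycolytic intermediate and those that pass its carbon through the folate cofactors of the mitochondrion and the cytosol. They were chosen by name as 9 of the 24421 gene rows of a read count table, and the set was drawn up because Aldh1l2 had been seen to be lower after DEK in these same libraries. The question was whether the other 8 genes shared that lower level. All 9 passed the filter on low counts and were among the 13803 genes tested.

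RNA was sequenced from 6 libraries of mouse bone marrow cells, 3 labelled DEK-treated and 3 labelled vehicle-treated. Both groups carried the same genotype, Dek -/-, on C57BL/6. Marrow came from the femur and was depleted of lineage-marked cells on columns, and polyadenylated RNA was made into stranded libraries. DEK is a chromatin protein that cells can also release and take up, and here it was given from outside to cells labelled Dek -/-. The labels give no dose, duration, protein source, sex or age, and they do not say whether libraries of 1 group came from different animals, so p-values here measure only the spread between these libraries.

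Serine synthesis starts from phosphoglycerate, which Phgdh oxidises, Psat1 transaminates with glutamate and Psph dephosphorylates. The enzymes Shmt2 in mitochondria and Shmt1 in the cytosol then split serine into glycine and a single carbon carried on tetrahydrofolate. In mitochondria Mthfd2 oxidises that carbon, Mthfd1l releases it as formate, and Aldh1l2 burns it to carbon dioxide while making NADPH. In the cytosol the trifunctional enzyme Mthfd1 takes formate back into folate for purine and thymidylate synthesis, on which dividing marrow progenitors depend. ATF4, the transcription factor of the amino acid response, is known to raise many of these genes, Phgdh, Psat1, Shmt2 and Mthfd2 among them.

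Depth ran from 42496076 to 49128378 counts in DEK libraries and from 34875736 to 48867857 counts in vehicle libraries. The library numbered 3 stood apart in both groups: neutrophil granule genes took 5.49% of counts in DEK 3 and 6.23% in vehicle 3, against 0.608% to 0.820% in the other 4 libraries. Dek itself averaged 17.0 ± 0.490 CPM (read counts scaled to library size) in DEK libraries and 18.7 ± 2.71 CPM in vehicle libraries (SD, n = 3 each). The labels do not state which part of Dek is deleted, so reads over the whole gene do not check the genotype. Equal replicate numbers deviated together, but unequal numbers 1 and 2 did so too, so only number 3 was clearly set apart. Differences are therefore given both without pairs and within the 3 pairs of equal number.

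Aldh1l2, the mitochondrial formyltetrahydrofolate dehydrogenase, was lower in every DEK library than in any vehicle library, but from very few reads. It lies on the minus strand of mm10 at chr10:83487447-83534140, with 23 exons and 6030 exonic bases in the authors' table. DEK libraries held 32, 25 and 6 counts, against 121, 56 and 27 counts in vehicle libraries, in the order of the replicate numbers. Scaled to library size these were 0.714, 0.493 and 0.139 CPM in DEK libraries, against 2.45, 1.40 and 0.804 CPM in vehicle libraries. The groups did not overlap, and within each group the library numbered 3 was lowest. Of the 13803 genes tested, 3.41% had DEK libraries that all lay below all vehicle libraries. Because the set was drawn up from this very difference, it is given as a description with no test.

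The Aldh1l2 mean was 0.449 ± 0.290 CPM in DEK libraries and 1.55 ± 0.835 CPM in vehicle libraries (SD, n = 3 each). Within pairs its log2 fold change was -1.83 ± 0.36 (SE), a level 3.57-fold lower in DEK libraries. The differences of the 3 pairs, DEK minus vehicle on the log2 CPM scale, were -1.72, -1.43 and -2.20. Without pairs the log2 fold change was -1.79 ± 0.67 (SE). Aldh1l2 was lower by more than 1 log2 unit in every pair, while 17.9% of all genes tested were lower in all 3 pairs by any amount. Its share of the reads of the 9 genes was 0.173%, 0.0939% and 0.0399% in DEK libraries, against 0.457%, 0.279% and 0.228% in vehicle libraries. In cells sampled in bulk, fewer cells that express a gene and less RNA per cell cannot be told apart.

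In the GENCODE M21 annotation, D10Wsu102e on the opposite strand reaches into the Aldh1l2 exons over 1059 bases, and the counting used no strand option, so the Aldh1l2 counts are uncertain. In the authors' own gene models the genes did not overlap. D10Wsu102e held 72.1, 63.7 and 43.8 CPM in DEK libraries, against 72.6, 70.0 and 50.9 CPM in vehicle libraries. Its groups overlapped, and its log2 fold change within pairs was -0.12 ± 0.09 (SE; edgeR adjusted p = 0.682). Aldh1l1, the cytosolic paralog of Aldh1l2, held 8.10, 10.6 and 13.1 CPM in DEK libraries, against 8.80, 9.38 and 10.2 CPM in vehicle libraries. The Aldh1l1 groups overlapped too, with a log2 fold change within pairs of 0.14 ± 0.15 (SE; edgeR adjusted p = 0.774).

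**Figure D1:**
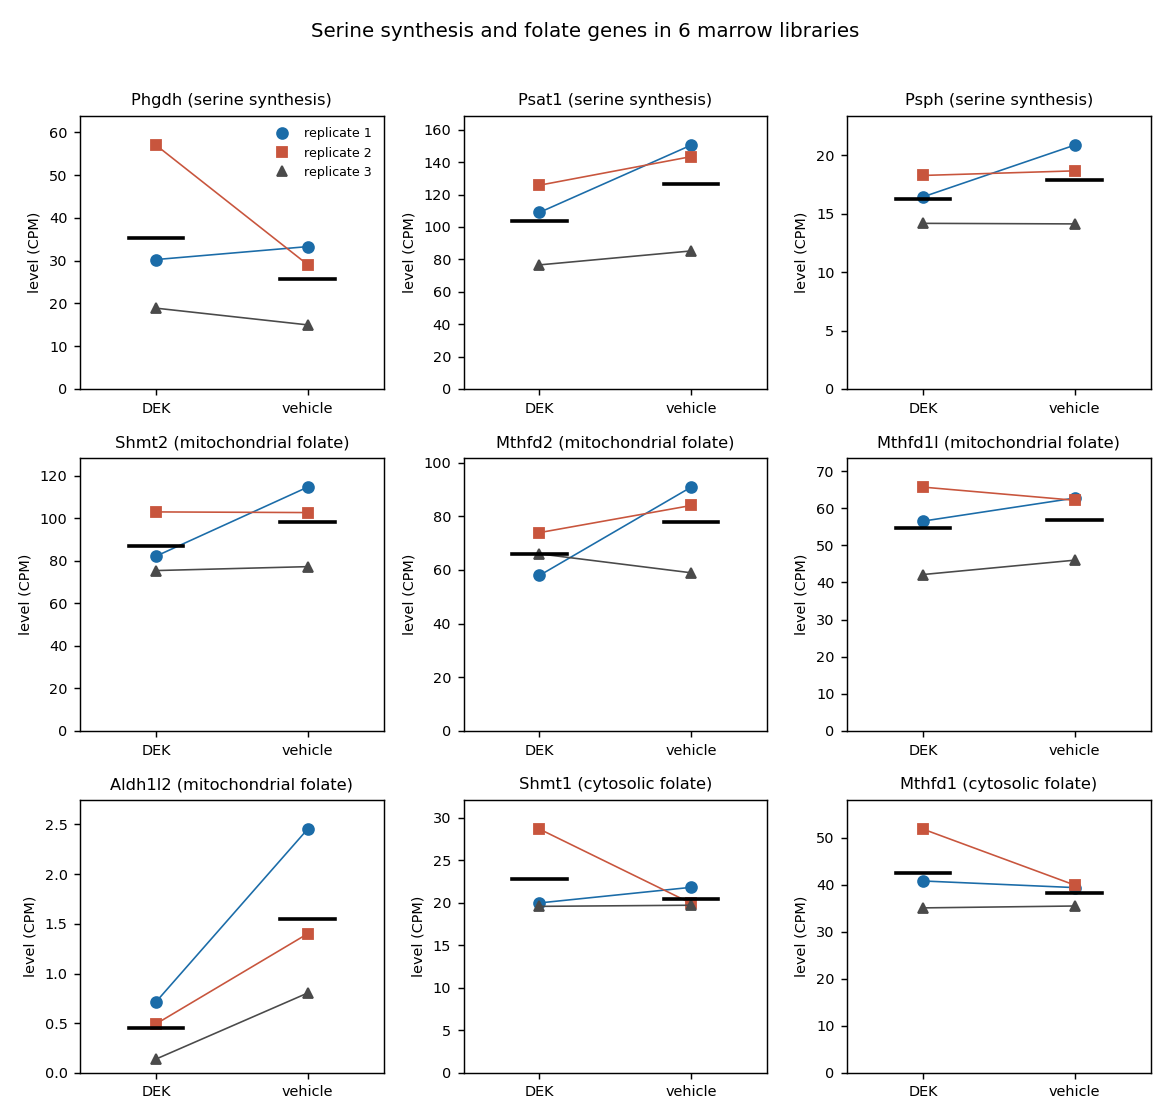
Level of each of the 9 genes in CPM (vertical axes, each from 0), with DEK libraries left and vehicle libraries right; symbols mark the replicate numbers, thin lines join equal numbers and black bars are group means. Aldh1l2 is the gene whose DEK libraries (0.139 to 0.714 CPM) all lie below its vehicle libraries (0.804 to 2.45 CPM), and the other 8 genes overlap.

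The estimates for the rest of the pathway were smaller, with log2 fold changes within pairs from -0.27 to 0.39 for the other 8 genes. Of these 8 genes, 0 had groups that did not overlap, against 7.19% of all genes tested. That share was 3.78% with DEK libraries higher and 3.41% with DEK libraries lower. A count of 0 among 8 genes lies close to such shares and does not set these genes apart. In edgeR's quasi-likelihood test, 0 of the 8 passed, either without pairs or within pairs. Without pairs that test called 0 of 13803 genes (0%) at an adjusted p of 0.05, with 360 at an unadjusted p under 0.05. The count without pairs therefore cannot set the 8 apart from other genes. DESeq2 called 56 genes (0.406%) and limma-voom 0, and neither called any of the 8. None of the other 8 had an unadjusted p under 0.05 without pairs. With pairs, 177 genes (1.28%) passed in edgeR, of which 120 (0.869%) were higher and 57 (0.413%) lower in DEK libraries. The count of 0 among the 8 within pairs lies close to that share too. Adjusted p-values of the 8 genes within pairs ran from 0.281 to 0.845. The 8 genes had a median log2 fold change of -0.10 within pairs, against -0.00 over all genes tested. Their 95% intervals within pairs reached down to -0.56 and up to 0.91 on the log2 scale. The Aldh1l2 estimate led to the choice of the set and carries its own error, so the intervals were not tested against it. Without pairs the intervals were wider, from -0.94 to 1.6, so smaller changes of single genes were not detectable at this spread.

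Phgdh, the dehydrogenase of the committed step of serine synthesis, was the most variable of the 9 genes apart from Aldh1l2. It lies at chr3:98313171-98339969 on the minus strand. DEK libraries held 30.2, 57.0 and 18.9 CPM, against 33.3, 29.1 and 15.0 CPM in vehicle libraries. DEK 2 was highest of all 6 libraries, both libraries numbered 3 were lowest, and the groups overlapped. The pairs disagreed in sign, with log2 differences of -0.14, 0.97 and 0.33. Within pairs the log2 fold change was 0.39 ± 0.21 (SE; edgeR adjusted p = 0.561), and without DEK 2 the unpaired value turned to -0.070.

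Psat1, the phosphoserine aminotransferase at chr19:15905123-15925059, minus strand, was lower in DEK libraries in all 3 pairs by a small amount. It held 109, 126 and 76.6 CPM in DEK libraries, against 151, 143 and 85.2 CPM in vehicle libraries. The groups overlapped because vehicle 3 lay below DEK 1 and DEK 2. Within pairs the log2 fold change was -0.27 ± 0.10 (SE), with a 95% interval from -0.48 to -0.06. Its unadjusted p in edgeR within pairs was 0.0174, and the adjusted p over all genes was 0.281, so Psat1 did not pass. Psat1 was the strongest of the 8 genes by this p, at a size far smaller than that of Aldh1l2.

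Psph, the phosphatase that completes serine, lies at chr5:129765558-129787253 on the minus strand. It held 16.5, 18.3 and 14.2 CPM in DEK libraries, against 20.9, 18.7 and 14.1 CPM in vehicle libraries. Only pair 1 showed a visible gap, and pairs 2 and 3 differed by -0.03 and 0.00 on the log2 scale. The log2 fold change within pairs was -0.13 ± 0.12 (SE; edgeR adjusted p = 0.754). GENCODE M21 places 256 exonic bases of Psph opposite exons of Cct6a, so its counts are uncertain.

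Summed per transcript length, the 3 serine synthesis genes reached 156, 203 and 86.7 TPM (counts scaled to exonic length and library size) in DEK libraries, against 199, 187 and 94.4 TPM in vehicle libraries. DEK 2 was the highest library and DEK 3 the lowest, so the groups overlapped. The mean was 149 ± 58.5 TPM in DEK libraries and 160 ± 57.4 TPM in vehicle libraries (SD, n = 3 each).

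Shmt2, the mitochondrial serine hydroxymethyltransferase at chr10:127517123-127522444, minus strand, held 82.1, 103 and 75.4 CPM in DEK libraries. Vehicle libraries held 115, 103 and 77.2 CPM. Vehicle 1 alone stood above the DEK range, and the log2 fold change within pairs was -0.17 ± 0.11 (SE; edgeR adjusted p = 0.610). Its exons share 34 bases with Ndufa4l2 on the other strand in the authors' table. Ndufa4l2 was near absent, with a mean of 0.132 CPM in DEK libraries and 0.0735 CPM in vehicle libraries.

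Mthfd2, the mitochondrial methylenetetrahydrofolate dehydrogenase and cyclohydrolase, lies at chr6:83305704-83317604 on the minus strand. DEK libraries held 58.0, 73.9 and 66.0 CPM, against 90.9, 84.1 and 59.0 CPM in vehicle libraries. In pairs 1 and 2 the DEK library was lower, by -0.65 and -0.18 on the log2 scale, and in pair 3 it was higher by 0.16. Over all 3 pairs the log2 fold change was -0.22 ± 0.15 (SE; edgeR adjusted p = 0.624). Without the pair numbered 3, Mthfd2 fell by 0.42 ± 0.12 on the log2 scale (SE; edgeR adjusted p = 0.0215), a level 1.33-fold lower in DEK libraries. That fit called 641 genes, 4.64% of those it tested, with 2.37% higher and 2.27% lower in DEK libraries, and Mthfd2 was its 1 call among the 8 genes. The fit holds only pairs 1 and 2, so its p-values draw mainly on spread pooled over genes, not on each gene's own spread. The same 4 libraries without pairs gave -0.41 ± 0.13 (SE), which did not pass (edgeR adjusted p = 0.250). Within pairs but without the pair numbered 1, Mthfd2 was at -0.013 ± 0.13 (SE, edgeR adjusted p = 0.982). Without the pair numbered 2 it was at -0.23 ± 0.21 (SE, edgeR adjusted p = 0.997).

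Mthfd1l, the mitochondrial formyltetrahydrofolate synthetase at chr10:3973075-4167081, plus strand, was nearly level between the groups. It held 56.5, 65.7 and 42.1 CPM in DEK libraries, against 62.7, 62.1 and 46.0 CPM in vehicle libraries. The log2 fold change within pairs was -0.07 ± 0.10, with a 95% interval from -0.28 to 0.14. Its sign turned when single libraries were left out, for example to 0.098 without DEK 3.

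Among the paralogs, Mthfd2l encodes a second mitochondrial dehydrogenase of the Mthfd2 type. It was much lower than Mthfd2, at a mean of 1.53 ± 0.780 TPM in DEK libraries and 1.87 ± 0.982 TPM in vehicle libraries (SD, n = 3 each). Mthfd2 itself averaged 65.1 ± 11.7 TPM in DEK libraries and 78.9 ± 23.2 TPM in vehicle libraries. The Mthfd2l log2 fold change within pairs was -0.25 ± 0.28 (SE; edgeR adjusted p = 0.786).

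Shmt1, the cytosolic serine hydroxymethyltransferase at chr11:60788897-60811265, minus strand, held 20.0, 28.7 and 19.6 CPM in DEK libraries. Vehicle libraries held 21.8, 20.0 and 19.7 CPM. DEK 2 stood above the other 5 libraries, which lay close together, and the log2 fold change within pairs was 0.13 ± 0.14 (SE; edgeR adjusted p = 0.774). Mthfd1, the cytosolic trifunctional enzyme at chr12:76255232-76319820, plus strand, showed the same single high library. Mthfd1 held 40.8, 51.9 and 35.1 CPM in DEK libraries, against 39.4, 40.0 and 35.5 CPM in vehicle libraries. Its log2 fold change within pairs was 0.14 ± 0.11 (SE; edgeR adjusted p = 0.689). Without DEK 2 the unpaired values turned to -0.052 for Shmt1 and -0.013 for Mthfd1. A GENCODE M21 gene on the other strand covers 103 exonic bases of Mthfd1, which makes its counts uncertain.

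**Figure D2:**
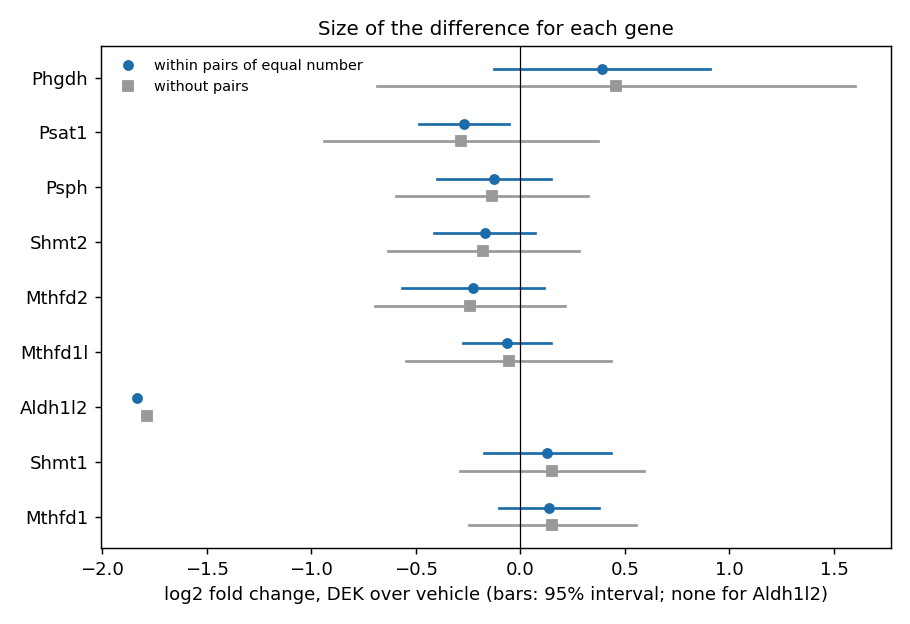
Log2 fold change of each gene, DEK over vehicle (horizontal axis), from the fit within pairs (blue circles) and the fit without pairs (grey squares), with 95% intervals for the 8 genes tested. Aldh1l2, drawn as a point because it chose the set, lies at -1.83 within pairs, and the blue intervals of the other 8 genes span -0.56 to 0.91.

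The mitochondrial and cytosolic arms of the folate pathway can be set side by side per transcript length. The 4 mitochondrial genes summed to 170, 209 and 129 TPM in DEK libraries, against 236, 219 and 134 TPM in vehicle libraries. The 2 cytosolic genes summed to 48.6, 64.5 and 34.7 TPM in DEK libraries, against 48.7, 47.5 and 37.2 TPM in vehicle libraries. The ratio of the mitochondrial to the cytosolic sum was 3.50, 3.24 and 3.71 in DEK libraries, against 4.84, 4.60 and 3.59 in vehicle libraries. In pairs 1 and 2 the ratio was lower in the DEK library and in pair 3 slightly higher, and the groups overlapped. The mean ratio was 3.48 ± 0.233 in DEK libraries and 4.34 ± 0.660 in vehicle libraries (SD, n = 3 each).

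Per transcript length the 9 genes spanned a wide range of levels. By mean TPM over the 6 libraries, Psat1 was first at 96.8 TPM, then Shmt2 at 83.4 TPM and Mthfd2 at 72.0 TPM. Psat1 was above Shmt2 in 5 of 6 libraries, and Shmt2 above Mthfd2 in 6 of 6. Phgdh followed at 34.5 TPM, below Mthfd2 in 6 of 6 libraries and above the next gene in 5 of 6. Mthfd1l at 26.9 TPM, Mthfd1 at 25.2 TPM, Psph at 23.1 TPM and Shmt1 at 21.7 TPM formed a group without a stable order, since each neighbour led in only 3 or 4 of 6 libraries. Aldh1l2 was last at 0.353 TPM, with a range from 0.0399 to 0.884 TPM, and lay below Shmt1 in 6 of 6 libraries.

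Nearly all of the 9 genes were lower in the libraries numbered 3, whatever the treatment. Set against the mean of the other libraries of its group on the log2 CPM scale, DEK 3 was lower for 8 of 9 genes, with a median of -0.39 and a range from -1.79 to 0.01. Vehicle 3 was lower for 9 of 9 genes, with a median of -0.49 and a range from -1.16 to -0.08. Over all genes tested these medians were -0.02 in DEK 3 and -0.01 in vehicle 3. Mthfd2 was the gene that did not follow in DEK 3. Phgdh was lower by -1.14 in DEK 3 and by -1.05 in vehicle 3, and Psat1 by -0.61 in DEK 3 and -0.79 in vehicle 3.

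Markers of other cell types differed along the same line. The 8 stem and progenitor markers took 0.117%, 0.0978% and 0.0559% of counts in DEK libraries, against 0.121%, 0.118% and 0.0637% in vehicle libraries. All 8 of these markers had a row, and none was at 0 in any library. The 8 neutrophil markers were high in both libraries numbered 3, as given above, and the 6 eosinophil markers low, at 0.274% in DEK 3 and 0.406% in vehicle 3, against 0.782% to 1.35% in the other 4 libraries. Between DEK and vehicle, 6 of 6 eosinophil markers lay below 0 within pairs, and 6 of 8 macrophage markers, with 2 above. Also below 0 were 8 of 8 stem and progenitor markers and 4 of 4 megakaryocyte markers, of which 0 passed. Of the 8 cycling markers, 7 lay above 0 and 1 below. In the eosinophil and macrophage lists 0 passed as higher, against 0.869% of all genes tested. Passing as lower were 2 of 6 eosinophil markers and 2 of 8 macrophage markers, against 0.413% of all genes tested. Those were Epx at -0.66 ± 0.11 and Prg3 at -0.55 ± 0.11 for eosinophil granules (SE; edgeR adjusted p = 0.0107 and 0.0382), and the complement genes C1qb at -1.58 ± 0.22 and C1qc at -1.15 ± 0.24 for macrophages (SE; edgeR adjusted p = 0.0107 and 0.0339). Among the 6 monocyte markers Ly6c2 and Cx3cr1 passed as higher within pairs, while 4 of the 6 lay above 0 and 2 below. Among the 8 neutrophil markers Lcn2 passed as higher, while 4 of the 8 lay above 0 and 4 below. The eosinophil share was 1.08%, 0.782% and 0.274% in DEK libraries, against 1.35%, 1.25% and 0.406% in vehicle libraries. For the macrophage markers the shares were 0.0957%, 0.0848% and 0.0578% in DEK libraries, against 0.102%, 0.102% and 0.0767% in vehicle libraries. In 5 of 12 marker lists the share was lower in the DEK library of every pair: eosinophil, macrophage, stem and progenitor, megakaryocyte and T cell. Over all 12 marker lists the exact two-sided permutation p between the groups ran from 0.2 to 1, where 0.1 is the smallest that 3 against 3 libraries allow. The only markers at 0 in any library were Hba-a1 and Hbb-bt, at 0 in all 6, and Adipoq in vehicle 3. The part of these cell types in the level of Aldh1l2 or of any other of the 9 genes was not tested.

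Other genes around the pathway were read from 7 lists, and without pairs 0 of their members passed the edgeR test, as for all genes tested. Within pairs, 0.869% of all genes tested were called higher and 0.413% lower in DEK libraries. In the glycine cleavage system, which breaks glycine down to load folate in mitochondria, 3 of 4 genes were tested and 0 passed within pairs, with a median log2 fold change of 0.03. Its smallest p-values belonged to Dld, the shared dihydrolipoamide dehydrogenase, at 0.04 ± 0.09 (SE), and Gcsh, the lipoyl carrier, at 0.03 ± 0.15 (SE). Of 9 other folate enzymes tested, 0 passed, with a median of 0.04. Among them, Mthfsl was at -0.19 ± 0.16 (SE; edgeR adjusted p = 0.688). Of 11 methionine cycle and transsulfuration genes tested, 0 passed, with a median of -0.03. Mmadhc, a carrier of vitamin B12 within the cell, was at 0.25 ± 0.09 (SE; edgeR adjusted p = 0.300). Mat2a, which makes S-adenosylmethionine, was at 0.20 ± 0.09 (SE; edgeR adjusted p = 0.434). Of 16 genes listed for purine and thymidylate synthesis, routes that use folate carbon at some of their steps, 0 passed, with a median of 0.02. Prps2, which makes the ribose donor of purines, was at -0.17 ± 0.09 (SE), and Tk1, the thymidine kinase of the salvage route, at 0.19 ± 0.12 (SE).

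Folate uptake and the use of serine held few calls, some of them only when the pair numbered 3 was left out. The fit without that pair called 2.37% of all genes tested higher and 2.27% lower in DEK libraries. Of 5 genes for folate uptake and retention tested, 0 passed over the 3 pairs. Ggh, the lysosomal hydrolase that trims folate chains so that folate can leave the cell, held 195, 168 and 124 CPM in DEK libraries, against 135, 143 and 95.5 CPM in vehicle libraries. Ggh was higher in the DEK library of every pair, at 0.38 ± 0.10 (SE; edgeR adjusted p = 0.0912), and it passed when the pair numbered 3 was left out (edgeR adjusted p = 0.0350). Slc19a1, the reduced folate carrier, was at 0.17 ± 0.15 (SE; edgeR adjusted p = 0.733). Against shares of 0.413% falling and 0.869% rising over all genes within pairs, 14 genes for transport and use of serine and glycine were tested. Of these, 1 fell within pairs and 0 rose, with a median of -0.06. The gene was Sptssa, a small subunit of the palmitoyltransferase that joins serine to a fatty acid in sphingolipid synthesis. Sptssa held 123, 111 and 98.2 CPM in DEK libraries, against 188, 164 and 118 CPM in vehicle libraries. DEK 1 lay just above vehicle 3, so the groups overlapped, and Sptssa fell by 0.48 ± 0.10 on the log2 scale (SE; edgeR adjusted p = 0.0370), a level 1.39-fold lower. Slc1a4, a carrier of serine and other neutral amino acids, held 1.90, 1.79 and 1.13 CPM in DEK libraries, against 5.70, 3.60 and 1.25 CPM in vehicle libraries. It did not pass over the 3 pairs (edgeR adjusted p = 0.155), and without the pair numbered 3 it fell by 1.30 ± 0.26 on the log2 scale (SE; edgeR adjusted p = 5.4e-05). Alas1, which joins glycine to succinyl-CoA in haem synthesis, also rose in that fit, at 0.50 ± 0.13 (SE; edgeR adjusted p = 0.00451). As for Mthfd2, p-values of the fit without the pair numbered 3 draw mainly on spread pooled over genes.

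A list of 28 ATF4 targets and regulators, which holds none of the 9 genes, gave 2 falls and 0 rises within pairs, with a median of -0.06. Of all genes tested within pairs, 0.413% fell and 0.869% rose. Gpt2, the mitochondrial alanine aminotransferase, held 4.84, 4.93 and 3.61 CPM in DEK libraries, against 12.6, 8.68 and 6.61 CPM in vehicle libraries. The Gpt2 groups did not overlap, and it fell by 1.03 ± 0.17 on the log2 scale (SE; edgeR adjusted p = 0.0130), a level 2.04-fold lower. Chac1, which degrades glutathione, held 3.79, 3.51 and 6.32 CPM in DEK libraries, against 9.61, 5.98 and 10.1 CPM in vehicle libraries. Chac1 was lower in the DEK library of every pair, though DEK 3 lay above vehicle 2, and it fell by 0.93 ± 0.18 on the log2 scale (SE; edgeR adjusted p = 0.0265). Without pairs neither passed (edgeR adjusted p = 1.00 for each).

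How many genes of the ATF4 list passed changed with the pair numbered 3. The median log2 difference of the 28 genes was -0.36 in pair 1, -0.08 in pair 2 and 0.15 in pair 3, and 23, 16 and 6 of them were below 0. For the 8 genes other than Aldh1l2 the medians were -0.25, 0.04 and -0.01, with 7, 3 and 5 of 8 below 0. Over all genes tested the medians were -0.02, 0.01 and -0.00. In the fit without the pair numbered 3, 2.27% of all genes tested were called lower and 2.37% higher in DEK libraries. There 7 of 28 ATF4 list genes fell and 0 rose, with a median of -0.21. These were Asns, Gpt2, Chac1, Atf5, Pck2, Atf4 and Aldh18a1. Asns, the asparagine synthetase, held 26.1, 22.0 and 46.2 CPM in DEK libraries, against 61.6, 49.1 and 40.5 CPM in vehicle libraries. DEK 1 and DEK 2 were the lowest of the 6 libraries and DEK 3 lay above vehicle 3, with log2 differences of -1.24, -1.16 and 0.19. Without the pair numbered 3, Asns fell by 1.20 ± 0.14 on the log2 scale (SE; edgeR adjusted p = 5.63e-16), and over all 3 pairs it did not pass (edgeR adjusted p = 0.629). The small p of the fit with only pairs 1 and 2 draws mainly on spread pooled over genes, not on the spread of Asns itself. Atf4 itself held 176, 198 and 286 CPM in DEK libraries, against 271, 249 and 259 CPM in vehicle libraries. Without the pair numbered 1, the list gave 0 falls and 2 rises, in a fit where 1.03% of all genes tested were called higher and 0.266% lower in DEK libraries. The 2 were Slc7a11 at 0.88 ± 0.15 (SE; edgeR adjusted p = 0.0311) and Cebpb at 0.63 ± 0.12 (SE; edgeR adjusted p = 0.0305). Without the pair numbered 2, edgeR called 0 genes of the list and 0 of all genes, with 675 of all genes at an unadjusted p under 0.05.

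**Figure D3:**
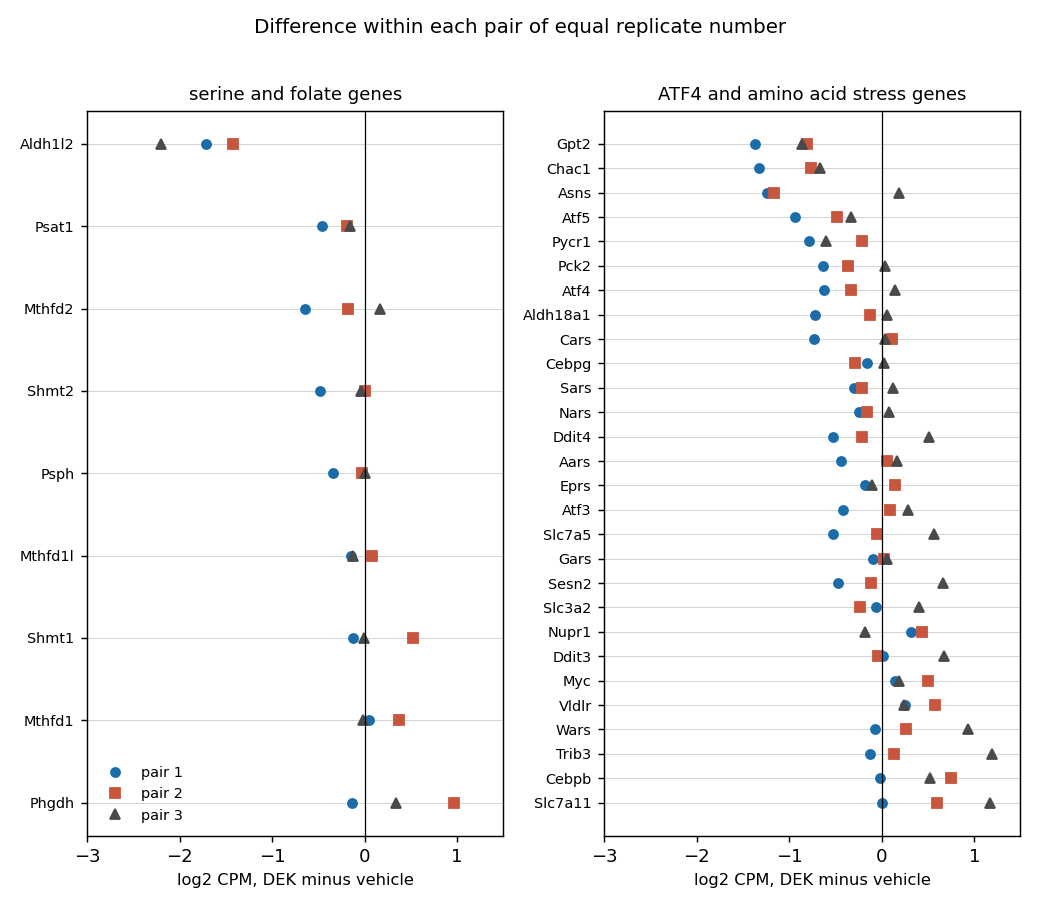
Log2 CPM difference, DEK minus vehicle (horizontal axes), in each of the 3 pairs of equal replicate number, for the 9 serine and folate genes (left) and 28 genes of the ATF4 list (right), ordered by their mean. Aldh1l2 lies between -2.20 and -1.43 in all pairs, whereas the other 8 genes lie between -0.65 and 0.97, and pair 3 (triangles) lies to the right of pair 1 (circles) for Asns and Mthfd2.

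Promoter sequence is shown for Mthfd2, Chac1 and Asns, which all fell when the pair numbered 3 was left out. The composite element bound by ATF4 with a C/EBP partner was searched as TGATGNAA on both strands, in RefSeq windows (GRCm38.p6) of 300 bases from 250 before to 50 after the start. The 250 bases before the start of Mthfd2, at chr6:83317605-83317854 on the minus strand, hold no match. Those of Chac1, at chr2:119350992-119351241 on the plus strand, and of Asns, at chr6:7693210-7693459 on the minus strand, hold 1 match each, in capitals, in Chac1 as its reverse complement.
Mthfd2: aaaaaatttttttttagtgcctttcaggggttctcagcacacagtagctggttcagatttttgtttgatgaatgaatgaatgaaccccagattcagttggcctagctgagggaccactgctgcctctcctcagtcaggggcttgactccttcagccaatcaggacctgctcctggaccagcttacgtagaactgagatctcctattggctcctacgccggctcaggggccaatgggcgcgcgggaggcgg
Chac1: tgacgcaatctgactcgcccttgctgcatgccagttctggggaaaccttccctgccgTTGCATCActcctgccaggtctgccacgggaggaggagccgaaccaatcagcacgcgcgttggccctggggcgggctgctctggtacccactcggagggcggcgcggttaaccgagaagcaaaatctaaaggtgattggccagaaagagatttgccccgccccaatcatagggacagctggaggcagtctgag
Asns: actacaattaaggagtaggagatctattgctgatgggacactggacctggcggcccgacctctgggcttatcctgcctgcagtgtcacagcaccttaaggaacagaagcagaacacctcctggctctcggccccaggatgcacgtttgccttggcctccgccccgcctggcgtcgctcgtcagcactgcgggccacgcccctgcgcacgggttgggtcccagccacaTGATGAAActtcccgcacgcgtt

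Of the 9 genes, 8 had such a window and Aldh1l2 had none. TGATGNAA was found in the windows of 0 of these 8 genes, in 11 of 23 genes of the ATF4 list with a window (47.8%) and in 3.97% of all 32851 windows. Of the 7 list genes that fell without the pair numbered 3, it was found in 3, Asns, Chac1 and Pck2, and not in 4, Gpt2, Atf5, Atf4 and Aldh18a1. Searched in the same way, the cyclic AMP response element TGACGTCA and the E-box CACGTG were each found in 0 of the 8, and in 1.79% and 7.15% of all windows. The 3 motifs were searched separately, and a place shared by more than 1 of them would count for each. A match is only a run of letters in a window, not a bound site.

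Genes whose levels ran most like those of Aldh1l2 over the 6 libraries were outside the pathway. Over 11335 genes that averaged 1 CPM or more, high Pearson correlations of log2 CPM with Aldh1l2 were those of Abcd3 at 0.99, Kdsr at 0.99, Zfp395 at 0.98, Fn3krp at 0.98 and Btnl9 at 0.98. Abcd3, a peroxisomal membrane transporter, had a log2 fold change within pairs of -0.30 ± 0.09 (SE). Kdsr, which reduces the first product of sphingolipid synthesis, was at -0.42 ± 0.12 (SE). Both were picked for running like Aldh1l2, so a lower level in DEK libraries follows from that choice and is given with no test. Among the 8 pathway genes the correlation with Aldh1l2 was 0.80 for Psat1, 0.74 for Psph, 0.71 for Shmt2, 0.65 for Mthfd1l and 0.57 for Mthfd2. It was 0.23 for Phgdh, 0.10 for Mthfd1 and -0.01 for Shmt1, and by rank Psat1 was gene 760 of 11335. All genes share the same 6 libraries, and the libraries numbered 3 as well as the treatment enter these values.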

How the data were processed

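Gene counts of 6 libraries, 3 DEK and 3 vehicle, were used as deposited. Per the file headers, the authors made these counts with featureCounts 1.6.1 on mm10, over exons grouped by gene, with no option for strand, read pairs or overlapping genes, from alignments all named for lane 6. The submitters' processing notes name Trim Galore, STAR, HTSeq and edgeR, and their versions are not given in the sources used here. HTSeq and featureCounts are both counters, and the table's own header gives the second. Reads shared by overlapping genes were left out by that setting, and antisense reads could not be told apart. Rn45s, a ribosomal RNA row, took 0.159% to 4.89% of counts per library. Lineage-positive cells, which the design text mentions, were not analysed here.

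Analysis used R 4.3.3, edgeR 4.0.16, limma 3.58.1 and DESeq2 1.42.0. Genes were kept by filterByExpr (13803 of 18049 with a count) with TMM factors. DEK was compared with vehicle by edgeR's robust two-sided quasi-likelihood test, with no block as the main fit. Benjamini-Hochberg adjusted p-values cover the whole tested table, and 0.05 was the threshold. The steps were tested on simulated data. TPM was computed from the counts and the exonic lengths the authors deposited. Log2 CPM used a prior count of 2. Standard errors come from the F statistic. Marker shares were compared by two-sided exact permutation tests, whose smallest p is 0.1. With 34875736 to 49128378 counts per library, only Aldh1l2 of the 9 genes was limited by low counts.

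Deviations from group means correlated by 0.55, 0.56 and 0.80 for equal numbers 1, 2 and 3, all over the rule's 0.1, so the numbers were taken as pairs, although the labels do not say what they share. Unequal numbers 1 and 2 also exceeded 0.1, at 0.52 and 0.41. Deviations from a mean of 3 libraries cancel out, so with number 3 apart, numbers 1 and 2 deviate together in any matching. The rule therefore cannot decide how numbers 1 and 2 are matched, and results within pairs assume that equal numbers belong together. Adding the block lowered the common biological coefficient of variation to 13.1%, against 33.1% without it. The members, the gene lists and the tests were chosen with earlier results of these data known. Named genes are the 9 members, Dek, list members called with or without the block or else the 2 with the smallest p within pairs, and the 6 genes most like Aldh1l2. Some genes that this rule names are not reported here. Paralogs, overlapping neighbours, single markers and the list genes called only when a pair was left out were named after their values were seen. Promoter windows come from RefSeq.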

Additional observations from a re-analysis of the deposited data

How the results depend on the processing

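Aldh1l2 was below 0 in all 19 alternatives, with log2 fold changes from -2.28 to -1.29. Its groups did not overlap, so leaving out libraries could not turn its sign, and only the size was open. Psat1, Psph, Shmt2 and Mthfd2 were also below 0 in all 19. Their values nearest 0 were -0.11 for Psat1, -0.0085 for Psph, -0.016 for Shmt2 and -0.013 for Mthfd2. The other signs turned when libraries were left out. Leaving out 1 library gave Phgdh -0.070 (without DEK replicate 2) to 0.75, Mthfd1 -0.013 (without DEK replicate 2) to 0.27 and Shmt1 -0.052 (without DEK replicate 2) to 0.24, and the replicate block without number 2 gave Shmt1 -0.057. Mthfd1l ran from -0.21 to 0.098 (without DEK replicate 3), and was at 0.019 without vehicle replicate 1 and 0.012 without vehicle replicate 2. The 1 call among the 8 other genes was Mthfd2, at -0.42 in the replicate block without number 3. Without number 1 Mthfd2 was at -0.013, and without number 2 at -0.23.

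Genes called numbered 0 without pairs and 177 with the replicate block. DESeq2 without pairs called 56. With the block, RLE scaling gave 176, no filter 349, DESeq2 350 and limma-voom 211, the last 4 chosen after seeing the data. The block without 1 number gave 0 to 641 genes, of which 181 without number 1, 0 without number 2 and 641 without number 3. Leaving out 1 library without pairs gave 0 to 1, and leaving out both numbered 3 gave 168. Without number 3 the calls split into 327 higher and 314 lower, against 120 and 57 with it.

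Of the 8 genes other than Aldh1l2, 0 were called with or without the block, and 0 to 1 with the block less 1 number. Calls in the list of folate uptake numbered 0 with the block, 1 without a filter and 1 with DESeq2, and 0 to 1 less 1 number. For serine transport and use they numbered 1 with the block and with RLE scaling or limma-voom, 2 without a filter or with DESeq2, 0 to 3 less 1 number, and 1 without pairs and without both libraries numbered 3. For the ATF4 list they numbered 2 with the block and with RLE scaling, 3 without a filter, with DESeq2 and with limma-voom, 0 to 7 less 1 number, and 2 without pairs and without both libraries numbered 3. Counts of 6 to 121 reads limit the precision of Aldh1l2.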
